A study of Mus musculus with 12 samples.

Results

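The early chromatin response of wild-type macrophages to bacterial lipopolysaccharide (LPS) is described here as the set of regions whose ATAC-seq peaks appeared or disappeared between 0 and 2 h of LPS. The 281500 peaks called in the 4 wild-type (WT) libraries at these times were chained into 87603 regions wherever they overlapped by at least 1 bp. A region was gained when both libraries at 2 h and neither library at 0 h called it, and lost in the opposite case. By this rule 3526 regions were gained, 4.02% of all regions, and 655 were lost, 0.748%, so the members number 4181. The calls of these 4 libraries chose the members, so their presence at one time and absence at the other is a description and has no test.

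ATAC-seq marks DNA that the Tn5 transposase can reach, which in most cells is promoters, enhancers and other sites where proteins hold nucleosomes aside. LPS is sensed by the receptor TLR4, and in macrophages the signal reaches transcription factors of the NF-κB, AP-1 and IRF families within minutes. Many of the enhancers that these factors use are held open in resting macrophages by lineage factors such as PU.1 and C/EBP proteins, while others become accessible only after the stimulus. lincRNA-EPS is a long noncoding RNA of macrophages known as a repressor of immune response genes.

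The cells were macrophages derived from bone marrow of female C57BL/6 mice, in culture for 9 days with 20% L929 supplement, which supplies the growth factor M-CSF. The series holds 12 libraries in 6 groups of 2: WT and lincRNA-EPS knockout (KO) cells, each at 0, 2 and 6 h of LPS at 100 ng/ml. The labels name neither the age of the mice nor the KO allele, and do not tie the libraries to animals or cultures. The spread behind each p-value is therefore that of the libraries alone and may be technical. Inside the deposited lists of the 2 h libraries the peak names give 1 h, and that conflict with the labels, which are followed here, could not be settled. Coordinates are mm9, and no gene annotation of that build was used here, so regions carry positions and no gene names, and the macrophage label could not be checked against marker genes.

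The WT 0 h lists held 67128 and 66885 peaks, and the WT 2 h lists 77100 and 70387. The means were 67006.5 ± 172 and 73743.5 ± 4747 (SD, n = 2 each), a difference of 6737 peaks with an exact two-sided permutation p = 0.333, the smallest that 2 libraries against 2 allow. Without WT 2 h replicate 1 the difference was 3380.5. The number of sequenced reads is unknown. The background coverage recovered from the deposited values was 2.35 and 2.51 reads at WT 0 h, and 3.03 and 2.32 at WT 2 h. Elsewhere it was lowest in the KO 0 h libraries, at 1.77 and 1.43, against 2.79 and 3.04 at KO 2 h, and the lowest summit of any called peak was 8 to 12 reads across the 12 libraries. Peak values were taken over local background, so the reads needed for a call differ between regions. At chr2:167515205-167515532 the WT 2 h summits of 47 and 43 reads had folds over local background of only 2.27 and 2.44. A region without a call can thus be open below the limit at its own site.

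Gained regions outnumbered lost ones and made up 84.3% of the 4181 members. With each list cut to the same number of its strongest peaks the counts were 2051 gained and 1410 lost, a gained share of 59.3%. When each list was thinned at random to the lowest background coverage of the 4, the counts were 3366 and 704, a gained share of 82.7%. With 1 library left out, the presence or absence of a call in 1 list stands for a pair, and the counts grew. Dropping WT 0 h replicate 1 gave 6699 gained and 3348 lost regions, and dropping its partner gave 6573 and 3207. Dropping WT 2 h replicate 1 gave 7071 and 2775. Dropping the other 2 h library gave 10750 gained and 1368 lost. Gained regions were the more numerous under each of these settings.

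The members were narrow and stood low in their lists. Gained regions had a median width of 347 bp (range 202 to 1224) and lost regions 321 bp (201 to 740), against 629 bp for the 53353 regions called in all 4 libraries. Strength was read as the percentile of a peak's −log10 q within its own list, where 100 is the strongest peak. The median gained region stood at percentile 19.1 in WT 2 h replicate 1 and 16.3 in replicate 2, with 22 and 19 reads at the summit. The median lost region stood at 13.7 and 12.5 in the WT 0 h libraries, with 17 reads in each. Regions called in all 4 libraries had medians of 65.3 and 61.8 in the 2 h lists. Just outside the rule lay 6177 regions with a call in both 2 h libraries and in 1 of 2 at 0 h, with medians of 26.0 and 21.5. A further 10493 regions had a single call at 2 h and none at 0 h, and a median width of 244 bp. The −log10 q was at least 5 in both calling libraries for 2653 gained (75.2%) and 433 lost regions (66.1%). Only 28 gained regions and 0 lost regions stood above the median of the list in both.

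The 20 strongest gained regions, by mean percentile over both WT 2 h libraries, had mean percentiles from 56.4 to 74.99 and mean folds over local background from 5.29 to 10.5. The strongest, chr7:52090677-52091286, had 75 and 64 reads at its summit in the WT 2 h libraries and 56 and 53 in the WT 6 h libraries. Its percentile at 2 h was 74.99 ± 0.83 and its fold 7.94 ± 0.21 (SD, n = 2). In KO it had 17 and 15 reads at 0 h, 78 and 80 at 2 h, then 89 and 61 at 6 h. The KO values at 2 and 6 h were all above those at 0 h. The reads are not scaled for depth, and the KO 0 h libraries were the shallowest.

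Next in rank was chr1:167785808-167786295, with 60 and 58 reads at WT 2 h, 82 and 87 at WT 6 h, 18 and 16 at KO 0 h, 85 and 71 at KO 2 h, and 124 and 96 at KO 6 h. Its reads, not scaled for depth, were higher at 6 h than at 2 h in every library of both genotypes. Its folds over local background overlapped between these times in both genotypes (in WT 7.72 and 9.97, then 7.33 and 8.26). The reads had the same order at chr3:135303110-135303603, which had 37 and 50 reads at WT 2 h and 119 and 102 at WT 6 h. In KO that region was called in neither library at 0 h and had 58 and 61 reads at 2 h and 152 and 106 at 6 h. Its WT folds were lower at 6 h (7.79 and 9.48, then 7.71 and 7.39), and its KO folds overlapped. By reads it had the highest summit at 6 h of the 20, in each of the WT and KO libraries.

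At other sites coverage was lower at 6 h than at 2 h. At chr16:11505821-11506333, the third in rank, the WT 2 h libraries had 53 and 43 reads and the WT 6 h libraries 13 and 13. The KO libraries had 24 and 13 reads there at 0 h, 40 and 46 at 2 h, and 26 and no call at 6 h. The KO folds over local background overlapped between 0 and 2 h (9.02 and 5.74, then 9.15 and 8.58). By reads, not scaled for depth, the 2 h values were above all others in both genotypes. The WT values had the same order at chr8:9008113-9008668, with 34 and 35 reads at 2 h against 16 and 21 at 6 h, but KO had 44 and 52 at 2 h, then 44 and 40 at 6 h. At chr13:5665873-5666267 WT had 34 and 35 reads at 2 h and 13 and 25 at 6 h, and KO 28 and 22 at 2 h and 25 and 18 at 6 h. There the KO values at 2 and 6 h overlapped.

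**Figure D1:**
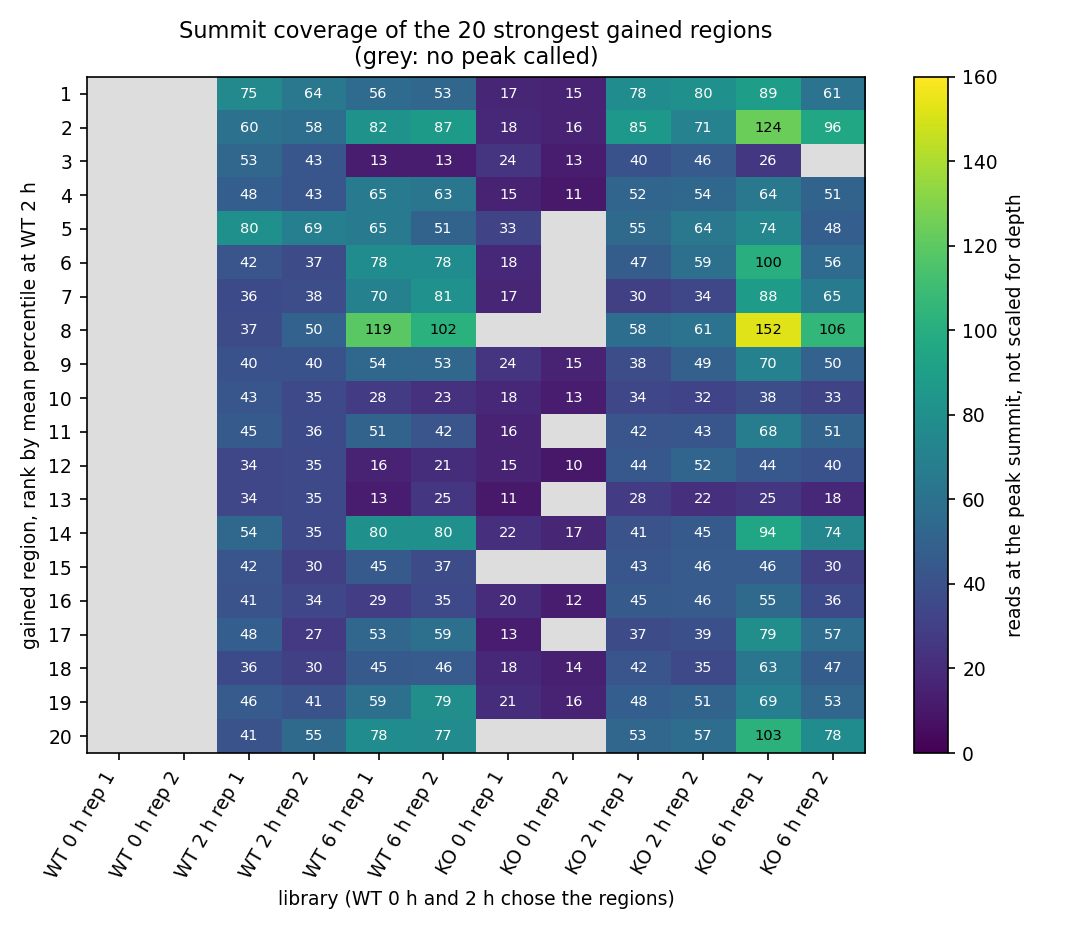
Reads at the peak summit (colour and number, not scaled for depth) for the 20 strongest gained regions, in rows by mean percentile at WT 2 h, in each of the 12 libraries, in columns. Grey marks no called peak; the WT 0 h columns are grey because the rule requires it, and all 20 rows are called in both WT 6 h and both KO 2 h libraries.

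All 20 of these regions were called in both WT 6 h libraries and in both KO 2 h libraries, none of which the rule had used. Over all regions those shares were 73.0% and 71.2%. At KO 0 h, 11 of the 20 were called in both libraries, 6 in 1 and 3 in neither. The shares were 55.6%, 18.4% and 26.0% of all regions, and 7.26%, 30.9% and 61.9% of all gained regions. The 20 thus lay near all regions in their KO 0 h calls, and were called more often there than gained regions as a whole. The called KO 0 h summits among the 20 had 10 to 33 reads. The rule kept every region with a call at WT 0 h out, so the KO 0 h calls cannot be set against WT 0 h.

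Most gained regions were still called at 6 h in WT. Both WT 6 h libraries called 1927 of the 3526 (54.7%), 1 of 2 called 815 (23.1%) and neither called 784 (22.2%). Over all 87603 regions the shares were 73.0% in both and 14.7% in neither. Of the lost regions, 241 of 655 (36.8%) were called in both WT 6 h libraries, and 231 (35.3%) in neither. Of the regions with a single call at 2 h and none at 0 h, 27.3% were called in both WT 6 h libraries. Cut to an equal number of peaks per library, the lists at 0, 2 and 6 h gave 854 gained regions that both WT 6 h libraries called. Dropping WT 0 h replicate 1 or its partner gave 3953 or 3871 such regions, and dropping WT 2 h replicate 1 or its partner gave 3014 or 3815.

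The strongest regions among the 784 with no call in either WT 6 h library lay lower in the 2 h lists, at ranks 108 to 188 of the gained regions. At chr5:143674393-143674767 the WT 2 h libraries had 43 and 49 reads and the KO 2 h libraries 45 and 39, and none of the other 8 libraries called it. Its mean fold at WT 2 h was 4.26 ± 1.3 (SD, n = 2). At chr2:173502478-173502797 the reads were 37 and 25 at WT 2 h and 23 and 22 at KO 2 h, with 35 reads in 1 KO 6 h library. The region chr4:46496734-46497091 had 40 and 30 reads at WT 2 h, 28 and 25 at KO 2 h, and 23 and 25 at KO 6 h. The first of the group by rank, chr9:119077750-119078158, had 30 and 22 reads at WT 2 h, 21 in 1 KO 2 h library and 13 in 1 KO 6 h library. The last, chr5:144333010-144333545, had 27 and 22 reads at WT 2 h, 20 and 21 at KO 2 h, and a call in 1 library at KO 0 h and at KO 6 h. Of these 5 regions, 4 were called in both KO 2 h libraries, against 28.3% of the 784 and 71.2% of all regions.

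In KO macrophages the regions gained in WT were called more often after LPS. The share of the 3526 called was 30.2% and 15.2% in the KO 0 h libraries and 63.9% and 66.6% in the KO 2 h libraries. The means were 22.7% ± 10.6 and 65.2% ± 1.9 (SD, n = 2 each), a difference of 42.5 percentage points with no overlap between the times. The exact two-sided permutation p was 0.333, the smallest this design allows. Over all regions the shares were 64.8% and 78.1%, a difference of 13.2 points. The share of regions lost in WT was 25.7% ± 15.2 at KO 0 h and 43.1% ± 3.3 at KO 2 h. That difference of 17.4 points lay near the 13.2 points of all regions.

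The lower background coverage of the KO 0 h libraries ran alongside these shares. In lists thinned to the lowest background coverage of the 8 WT and KO libraries at 0 and 2 h, the gained regions were called at 28.4% and 15.2% in KO 0 h and at 50.7% and 50.1% in KO 2 h. The lost regions were called at 34.4% and 15.0%, and then at 29.0% and 29.5%, so the times overlapped. All regions were called at 69.0% and 59.7%, and then at 71.1% and 70.3%. In thinned lists the times stayed apart at gained regions and over all regions, and at lost regions they did not. The means at KO 0 h and KO 2 h were 21.8% and 50.4% for gained, 24.7% and 29.2% for lost, and 64.3% and 70.7% for all regions. The part of coverage in these shares was not tested.

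**Figure D2:**
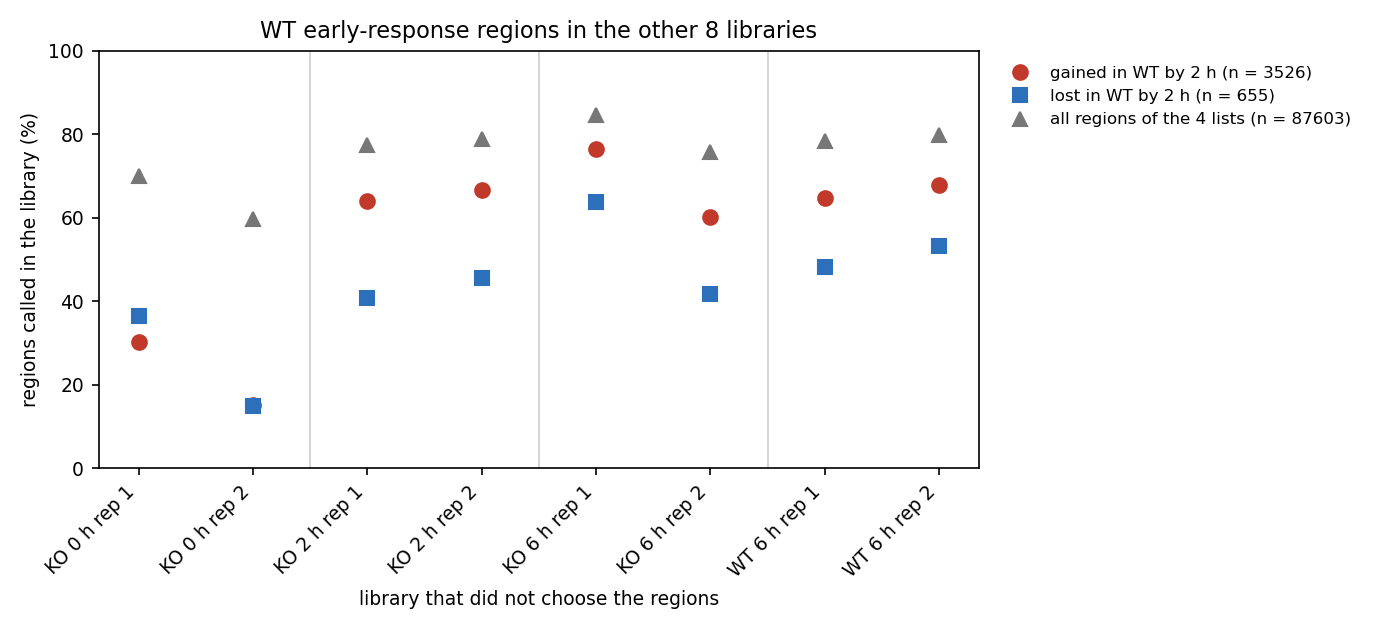
Percentage of the regions gained in WT (red circles), lost in WT (blue squares) and of all regions (grey triangles) that each of the 8 libraries outside the rule called, 1 point per library. Red points sit at 15.2% and 30.2% in the KO 0 h libraries and between 60.2% and 76.4% in the other 6.

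By the same rule applied to KO, 948 of the regions gained in WT (26.9%) were also gained in KO by 2 h, with a call in both KO 2 h libraries and in neither KO 0 h library. The background share was 6.09% of all 87603 regions, and 13.5% of the 14019 regions called in neither WT 0 h library. Among regions with a single WT call at 2 h and none at 0 h, 9.05% were gained in KO, and among regions lost in WT 60 (9.16%) were. KO losses were few: 20 of the regions gained in WT and 4 of those lost in WT (0.611%), with a background of 0.303%. In thinned KO lists 639 of the 3526 (18.1%) were gained in KO, against 3.68% of all regions. With all 8 lists thinned, the WT gained set held 2991 regions and 536 of them (17.9%) were gained in KO. The count was 306 with equal peak numbers, and dropping WT 0 h replicate 1, its partner or WT 2 h replicate 2 gave 1461, 1478 or 1574.

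The regions gained in both genotypes were led by chr3:135303110-135303603, described above. At chr10:117304235-117304751 the reads were 42 and 30 at WT 2 h and 43 and 46 at KO 2 h, with 45 and 37 at WT 6 h and 46 and 30 at KO 6 h. Its fold at WT 2 h was 9.03 ± 1.1 (SD, n = 2), and the reads at 2 and 6 h overlapped in both genotypes. At chr1:137711946-137712395 the reads were 41 and 55 at WT 2 h, 78 and 77 at WT 6 h, 53 and 57 at KO 2 h and 103 and 78 at KO 6 h. The region chr14:32410666-32411073 had 52 and 39 reads at WT 2 h, 75 and 76 at WT 6 h, 43 and 46 at KO 2 h and 88 and 80 at KO 6 h. The fifth, chr16:16346521-16347032, had 30 and 31 reads at WT 2 h, 57 and 57 at WT 6 h, 47 and 22 at KO 2 h and 65 and 48 at KO 6 h. At these last 3 sites the 6 h reads of each genotype, not scaled for depth, lay above its 2 h reads. The folds over local background had that order in both genotypes only at chr14:32410666-32411073. At chr1:137711946-137712395 the WT folds overlapped, and the KO folds were lower at 6 h (6.57 and 6.94, then 5.84 and 6.56). At chr16:16346521-16347032 the WT folds were higher at 6 h and the KO folds overlapped (12.7 and 5.69, then 11.6 and 11.7).

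Of the 3526 gained regions, 559 (15.9%) followed 1 course in both genotypes, with no call at 0 h and a call in both libraries at 2 and at 6 h. The part of that course that the rule did not fix was present in 3.06% of all regions and in 6.93% of the 14019 regions called in neither WT 0 h library. The 157 gained regions and 52 lost regions at the other extreme were called in none of the 8 libraries outside the rule. They were 4.45% of the gained and 7.94% of the lost regions, against 5.27% of all regions.

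Regions that stood higher in the 2 h lists were called more often elsewhere. Split by mean percentile into 4 groups of 881 or 882, the gained regions were called in both WT 6 h libraries at 40.1%, 47.2%, 58.2% and 73.1% from the weakest to the strongest group. They were called in both KO 2 h libraries at 28.4%, 40.6%, 52.9% and 78.7%. Only the strongest group reached the shares of all regions, which were 73.0% at WT 6 h and 71.2% at KO 2 h. The share gained in KO was 18.0%, 23.0%, 29.6% and 36.8%. The share that neither KO 0 h library called was 72.8%, 65.8%, 60.2% and 48.8%, against 26.0% of all regions, so the strongest group was also called most often in KO before LPS. For lost regions the share called in both WT 6 h libraries was 29.4%, 35.4%, 41.5% and 40.9% over 4 such groups, in the same order.

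**Figure D3:**
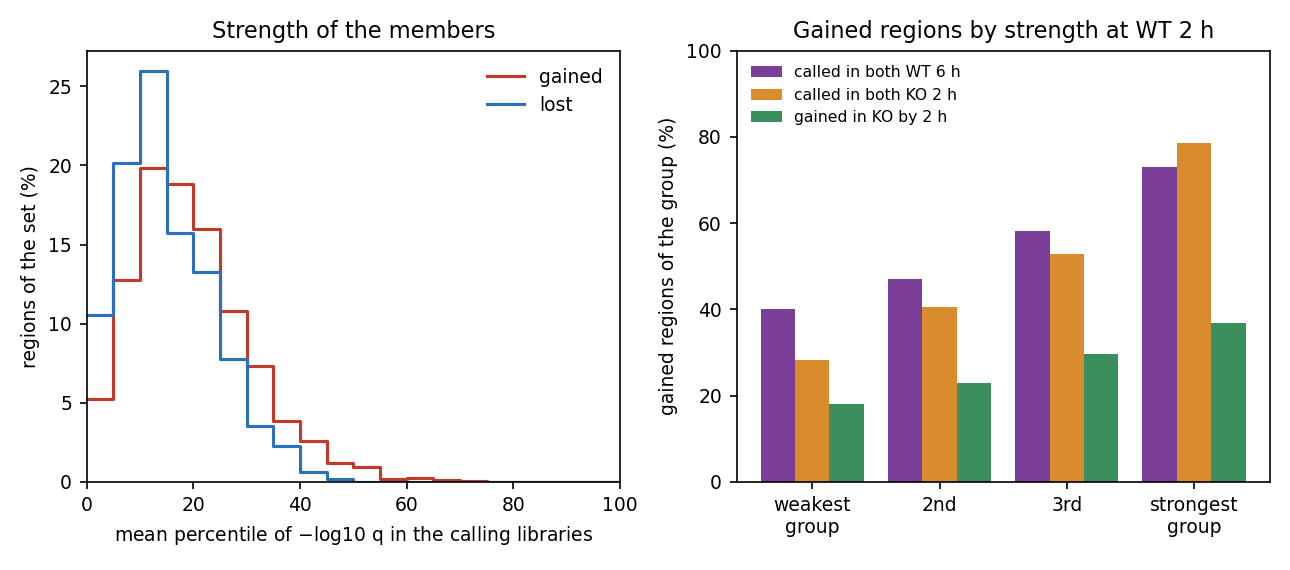
Left, the percentage of gained (red) and lost (blue) regions in each step of mean percentile of −log10 q over the 2 libraries that call them. Right, the percentage of gained regions in each of 4 groups by that percentile that were called in both WT 6 h libraries (purple), called in both KO 2 h libraries (orange) or gained in KO (green); the weakest group stands at 40.1%, 28.4% and 18.0%, and the strongest at 73.1%, 78.7% and 36.8%.

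The strongest lost regions had 18 to 42 reads at their summits in the WT 0 h libraries, and 4 of all 655 lost regions were lost in KO as well. The first in rank, chr1:97389502-97390022, had 26 and 25 reads at WT 0 h. Its percentile there was 48.2 ± 2.1, with a fold of 7.73 ± 0.45 (SD, n = 2). Elsewhere it was called in 1 WT 6 h library at 12 reads, in 1 KO 0 h library at 12 reads and in both KO 2 h libraries at 18 and 23. At chr3:66866662-66867017, with 26 and 22 reads at WT 0 h, all 8 libraries outside the rule had a peak, of 13 to 27 reads. At chr4:114633528-114633877 the WT libraries had 28 and 18 reads at 0 h and 36 and 31 at 6 h. In KO that region had no call at 0 or 2 h, and 45 and 19 reads at 6 h. At chr10:41918553-41918834, with 25 and 21 reads at WT 0 h, the only other call was 16 reads in 1 KO 2 h library. Among the 10 strongest lost regions, 5 were called in both WT 6 h libraries and 6 in both KO 2 h libraries, against 73.0% and 71.2% of all regions. Of the 10, 0 were lost in KO, where 0.303% of all regions were lost.

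The gained regions were scattered over the genome. Their share of all regions ran from 3.55% on chromosome X to 4.66% on chromosome 18, and the share of lost regions from 0.628% on chromosome 11 to 0.981% on chromosome 3. A gained region lay a median of 6554 bp from the nearest region called in all 4 libraries, and a lost region 7050 bp. That distance was 7812 bp for the regions with a single call at 2 h and none at 0 h. Within 50 kb of another gained region lay 26.5% of gained regions, and 24.9% of the regions with a single call had a gained region as near.

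Chained where the gap was at most 50 kb, the gained regions formed 3014 loci, of which 2592 held 1 region, 346 held 2 and 76 held 3 or more. These 76 held 242 gained regions (6.86%), and the largest number in a locus was 5. The 6 loci described here held 27 gained regions, of which 17 were still gained at a −log10 q of at least 5 and 14 with equal peak numbers. The locus chr19:6262441-6322669 spanned 60.2 kb with 5 gained regions among 13, of which 7 were called in all 4 libraries. Its strongest member by percentile, chr19:6291123-6291564, had 45 and 44 reads at WT 2 h, 30 and 30 at WT 6 h and 40 and 33 at KO 2 h. A neighbour, chr19:6296580-6296980, had more reads at its summit: 77 and 63 at WT 2 h, 63 and 55 at WT 6 h and 79 and 69 at KO 2 h, with no call at KO 0 h. A further member, chr19:6322335-6322669, had 27 and 16 reads at WT 2 h and 24 and 22 at KO 2 h. All 3 were called in both WT 6 h libraries, against 73.0% of all regions. The latter pair were gained in KO, against 6.09% of all regions.

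A span of 50.1 kb on chromosome 7, chr7:31644241-31694325, held 5 gained regions and no other region of the 4 lists. The strongest, chr7:31654267-31654633, had 23 and 34 reads at WT 2 h, 18 and 18 at WT 6 h, 30 and 26 at KO 2 h and 27 and 10 at KO 6 h. It was the only 1 of the 5 called in both WT 6 h libraries, while 3 of the 5 were called in both KO 2 h libraries and 2 were gained in KO. Over all gained regions these shares were 54.7%, 50.1% and 26.9%, and over all regions 73.0%, 71.2% and 6.09%. The other 4 had 13 to 23 reads at WT 2 h. At a −log10 q of at least 5, or with equal peak numbers, 2 of the 5 were still gained.

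The locus chr15:85991373-86114057 held 5 gained regions among 26, of which 17 were called in all 4 libraries. Its members took different courses. At chr15:86032375-86032723 the reads were 54 and 61 at WT 2 h and 54 and 47 at KO 2 h, and none of the other 8 libraries had a call. At chr15:86081603-86081940 they were 28 and 17 at WT 2 h and 55 and 58 at WT 6 h, and 30 and 20 at KO 2 h and 81 and 53 at KO 6 h. The first of these was called at 2 h only, and the second had more reads at 6 h than at 2 h in every library of each genotype. The second was not gained at a −log10 q of at least 5 or with equal peak numbers.

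At chr2:167515205-167578853 the 4 gained regions also differed. The strongest, chr2:167578254-167578853, had 65 and 61 reads at WT 2 h, 61 and 64 at WT 6 h, 54 and 53 at KO 2 h and 97 and 65 at KO 6 h, with no call at KO 0 h. At the other end of the locus, chr2:167515205-167515532 had 47 and 43 reads at WT 2 h and a mean percentile of 5.85, and no other library called it. With equal peak numbers it was not gained. At chr19:53586235-53629433 all 4 gained regions were called in both WT 6 h libraries and 1 of the 4 in both KO 2 h libraries. At chr3:69459011-69513909 both counts were 2 of 4, and 0 of the 4 regions were gained in KO. Each of these 4 was called in 1 KO 0 h library, which the rule for a gain in KO does not allow. Over all regions the shares were 73.0% in both WT 6 h libraries, 71.2% in both KO 2 h libraries and 6.09% gained in KO.

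Most accessible regions were called at both times, and for these the response was read as a change in rank. Each of the 53353 regions called in all 4 WT libraries was given its percentile by fold among those regions, and limma was fitted to the normal scores of the percentiles. After Benjamini-Hochberg adjustment limma called 0 regions higher (percent called 0) and 0 lower at 2 h. At an unadjusted limma p under 0.05 there were 2383 higher (4.47%) and 1625 lower (3.05%). The median absolute difference between the means of the times was 5.74 percentile points. Single replicates differed by a median of 7.34 at 0 h and 6.56 at 2 h, which is not the same quantity. In simulated data of the same 53353 regions, with the same noise SD in every region, the test recovered 20% of shifts of 1 score unit and 97% of shifts of 2. Noise in the real data need not be so uniform, so these shares do not give the power there. Observed differences of 3.15 score units at chr2:30070193-30070782 and 2.25 at chr10:61587476-61587936 were not called.

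The lowest adjusted p was at chr2:30070193-30070782, a region of 590 bp. Its percentile was 19.1 and 22.5 in the WT 0 h libraries and 98.96 and 99.09 in the WT 2 h libraries, and its deposited fold over local background, from separate lists, was 5.07 and 5.13, then 14.9 and 15.4. The difference in normal score was 3.15 ± 0.23 (SE), with an adjusted p = 0.0974 (limma). The adjusted p of this region was 0.0161 with a trend of the variance on the mean rank and 0.0475 over the 50911 regions with −log10 q of at least 5 in all 4 libraries, and between 0.140 and 0.584 in the other fits. In KO the same region had a fold of 8.30 and 8.24 at 0 h and 14.5 and 12.2 at 2 h. Among the 43018 regions called in all 12 libraries its KO percentiles were 52.5 and 57.5, then 98.4 and 92.7, and the times did not overlap in either genotype.

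The next regions by p, all with an adjusted p = 0.558 (limma), had wide separations in WT too. At chr10:61587476-61587936 the percentiles were 23.4 and 18.2 at 0 h, then 90.5 and 93.9 at 2 h. At chr19:24899000-24899644 they were 40.4 and 22.5, then 92.8 and 95.8. At chr1:152965604-152966135 they were 71.8 and 76.0, then 98.6 and 98.7. Among those lower at 2 h, chr15:102359588-102360143 had 56.6 and 53.9, then 10.8 and 5.88, and chr16:23927775-23928254 had 68.8 and 64.5, then 16.7 and 7.84. None of these met the threshold after adjustment, and the lack of overlap follows from the choice by lowest p.

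The KO libraries gave a reading of these ranks that had no part in choosing them. Of the 2383 regions higher in WT at an unadjusted p under 0.05, 1674 were called in all 12 libraries. In 685 of these (40.9%) both KO 2 h libraries ranked above both KO 0 h libraries, against 17.9% of all 43018 regions, and in 126 (7.53%) both ranked below, against 22.2%. The median KO difference was 8.20 percentile points. Of the 1625 lower in WT, 1094 were called in all 12. Both KO 2 h libraries ranked below in 330 (30.2%) and above in 131 (11.97%), and the median KO difference was −2.44 points. Over all 43018 regions the median KO difference was −0.645 points. Of the 8 regions with the lowest p among those higher at 2 h, 7 were separated in the same direction in KO. The exception, chr1:136140726-136141166, had KO percentiles of 52.5 and 35.0 at 0 h and 44.5 and 41.7 at 2 h. Of the 8 lower at 2 h, 5 were called in all 12 libraries and 3 of these were separated in the same direction. The exceptions were chr16:23927775-23928254, with KO percentiles of 43.2 and 46.5 at 0 h and 74.6 and 37.5 at 2 h, and chr7:90962498-90963035, with 15.0 and 1.58, then 13.9 and 9.24.

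**Figure D4:**
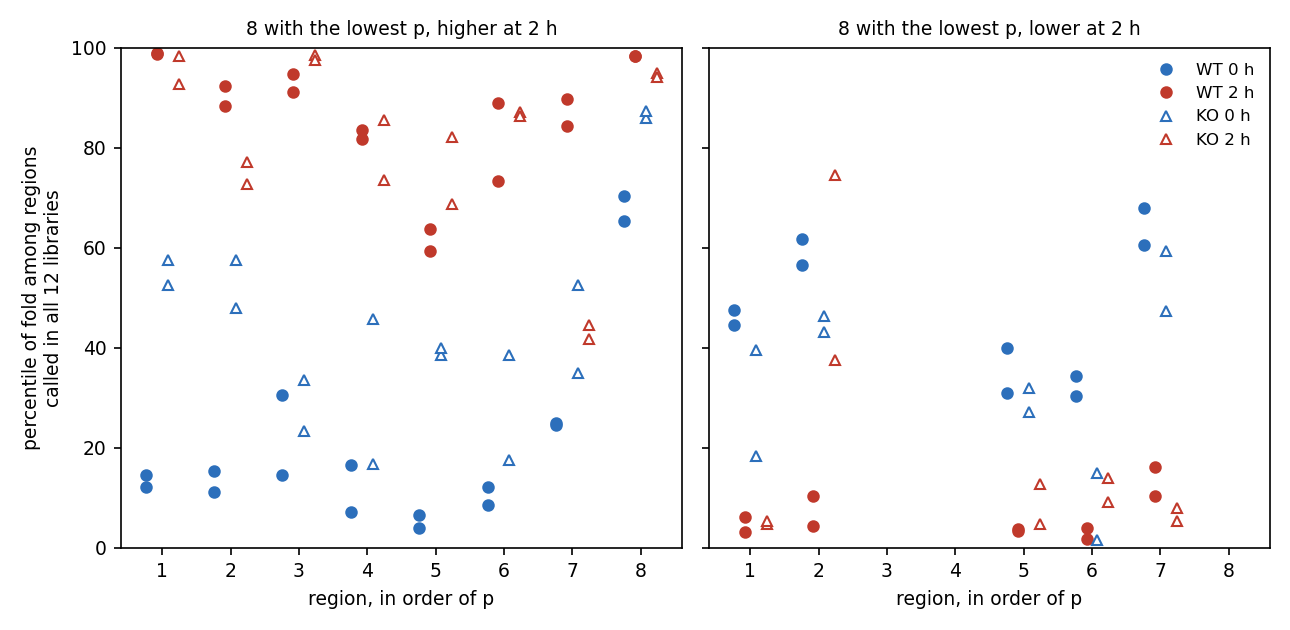
Percentile by fold among the 43018 regions called in all 12 libraries, for the 8 regions with the lowest limma p in each direction, in the WT (filled circles) and KO (open triangles) libraries at 0 h (blue) and 2 h (red). Places 3, 4 and 8 on the right are empty because those regions were not called in all 12 libraries; on the left the KO libraries at 2 h lie above those at 0 h in 7 of 8.

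Few gained and lost regions could be ranked in KO. The 189 gained regions called in all 4 KO libraries ranked higher at KO 2 h without overlap in 55 (29.1%) and lower in 37 (19.6%), against 18.0% and 21.9% of the 47256 regions called in all 4 KO libraries. The 30 lost regions split 5 and 5. These 189 and 30 regions are the few members that every KO library called at 0 and 2 h, so they do not stand for the rest.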

How the data were processed

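The members and lists were chosen with earlier results of these data known. The mm9 build, Bowtie2 2.1.0, MACS2 and Picard are named in the submitters' processing notes. Not given in the sources used here are the caller's settings and the handling of duplicates and of the Tn5 offset. Duplicates kept would raise peak values. The authors deposited 1 peak list per library. For each peak the deposited lists hold a fold ratio of the summit over local background and the −log10 p-value and −log10 q-value. These are the authors' values, used to rank and filter peaks within a list. Folds were tested between libraries only as percentiles over a common set of regions.

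Summit reads and background coverage were solved from the fold and p columns, and the solved p lay within 0.001 (log10) of the deposited p for 100% of peaks in each library. Peaks give presence or absence, so no counting interval applies. Regions were named by rule: the 20 gained and 10 lost with the highest mean percentile of −log10 q, the 6 loci with most gained regions, the 8 lowest limma p-values per direction, and the 5 strongest gained with no call at WT 6 h or also gained in KO. Further members of these loci were named after their values were seen. Deviations of same-numbered libraries from their group means correlated at 0.0155, so replicate numbers were not taken to pair libraries. A thinned peak was kept at a −log10 p of at least 4.28. Alternatives covered thinning, thresholds, overlap, the ranked value and left-out libraries. Counting and ranking were tested on simulated data. Python 3.11.15, numpy 2.4.6, pandas 2.3.3, scipy 1.17.1, R 4.3.3 and limma 3.58.1 were used.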

Additional observations from a re-analysis of the deposited data

Results flagged for a closer look

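In 20 regions the WT libraries gained a peak by 2 h and the KO libraries lost one, and in 60 regions WT lost a peak and KO gained one. The 20 were 0.567% of the gained regions, against 0.303% of all regions lost in KO, and the 60 were 9.16% of the lost regions, against 6.09% of all regions gained in KO. In the classes of regions outside the rule that some but not all of the 4 lists called, 4.94% to 16.8% were gained in KO. The 20 and the 60 were singled out because all libraries of one genotype moved one way and all libraries of the other moved the opposite way. The difference between the genotypes was not tested. By the same rule 948 regions were gained in both genotypes and 4 were lost in both. Among the 60 was chr7:17487247-17487683, with 36 and 42 reads at WT 0 h and no call at WT 2 h, against no call at KO 0 h and 38 and 33 reads at KO 2 h. Background coverage differed between the KO times, at 1.77 and 1.43 reads at 0 h and 2.79 and 3.04 at 2 h, and its part in these counts was not tested region by region. In KO lists thinned to the lowest coverage, 28 regions lost in WT (4.27%) were gained in KO, against 3.68% of all regions, and 39 gained in WT (1.11%) were lost in KO, against 0.857% of all regions. Lost in both were then 11 (1.68%) and gained in both 639 (18.1%).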

How the results depend on the processing

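Counts of gained and lost regions stayed within 1.5 times under thinning, a −log10 q of at least 5, summit windows, a 100 bp overlap and chaining of all 12 libraries. With list lengths made equal they were 2051 gained, 1410 lost, 306 also gained in KO and 854 called in both WT 6 h libraries; the cause was not tested. Thinning moved the number also gained in KO to 536; the cause was not tested. Leaving out 1 WT library gave 6573 to 10750 gained, 1368 to 3348 lost, 1336 to 1574 also gained in KO and 3014 to 3953 called at WT 6 h. The rule is then looser, as the presence or absence of a call is asked of 1 library where a pair must agree. The difference in peak number ranged from 3380.5 to 10093.5 without 1 library. Left-out libraries outside the rule, chosen after the data were examined, gave 1118 to 1409 also gained in KO and 2281 to 2388 at WT 6 h. The ranks gave 1 region higher with a variance trend and 1 with −log10 q of at least 5 in all 4 libraries, and 0 in every other fit; the cause was not tested. With the replicate number as a block, limma called 0 regions in either direction, with 2549 higher and 1621 lower at an unadjusted p under 0.05 and a lowest adjusted p of 0.140; with 2 pairs the numbers were not taken as a pairing. No result reversed. All 20 strongest gained and 10 strongest lost regions kept their calls under every alternative run. They were chosen as the strongest, and leaving out a library loosens the rule, so this outcome was largely set by the choice. Of the 27 members of the 6 named loci, 10 were no longer gained at a −log10 q of at least 5 and 13 with equal list lengths. A summit under about 10 reads is not called in the WT lists, and more reads are needed where local background is higher. Presence thus limits what can be seen at this depth.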
